A study of Homo sapiens with 2 samples.

Results

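The intervals described here are the weaker peaks of an HA-RFX6 ChIP-seq list that lie at the end of a single protein-coding gene. They were selected on 2 measured values from the deposited list, namely position and score. The midpoint had to lie within 1 kb of an end of exactly 1 protein-coding gene of the RefSeq GRCh38 gene table on chromosomes 1 to 22, and the score had to be below 40. Of 4994 distinct intervals on these chromosomes, 1763 met the rule (35.3%), and they lay at the ends of 1597 genes. Another 725 intervals at a single coding gene end had a score of 40 or more and are called stronger intervals below. Scores and positions relative to gene ends therefore chose these intervals, and both are given as a description without a test.

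The list came from MHCC-97H, a cell line of human hepatocellular carcinoma (HCC), which overexpressed HA-tagged RFX6 from a plasmid. DNA bound by the tagged protein was precipitated with an anti-HA antibody after formaldehyde fixation and sonication. The series holds 2 libraries, 1 HA-RFX6 ChIP and 1 input, both from this line, and an input file was not analysed here. The tagged protein was overexpressed, a control line without the tag was not analysed here, and there was no replicate, so no p-value or replicate error can be given. The submitters' processing notes name GRCh37, but 60.8% of the listed intervals lay at an end of a coding gene of GRCh38, against 7.67% and 8.11% after moves of 20 kb to either side, so coordinates are given as GRCh38. The read depth behind each interval is unknown, and what the score stands for is not stated. Percentages carry Wilson 95% intervals that cover the counting of intervals or genes only, because intervals and genes of a single library are not replicates.

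RFX6 is one of the regulatory factor X (RFX) proteins, winged helix transcription factors, and is known for its role in the development and function of pancreatic islet cells. RFX proteins recognise the X-box, an imperfect inverted repeat of which each arm reads roughly GTTNCC on one or the other strand, and several members of the family drive genes of the cilium. Promoters of widely expressed genes commonly lie in CpG islands, which are rich in G and C and in binding sites for the SP/KLF family (GGGCGG).

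Sequences were matched by gene symbol to the RefSeq promoter table of GRCh38.p14, which holds windows from 250 bases before to 50 bases after annotated starts. Of the 1763 weaker intervals, 1440 lay at a gene in the table, and 899 overlapped at least 1 of the windows of their own gene, 980 windows in all. Only 5 of the 980 windows held a paired X-box, taken as GTTNCC, a spacer of 0 to 3 bases and GGNAAC, and the genes were DCP1B, LRPAP1, PBX4, POLD2 and THG1L. The match lay inside the interval at 2 of them, DCP1B and POLD2, and outside it at the other 3. The 250 bases before the start are shown for the 3 genes whose window lies at the outermost start, and the paired X-box is in capitals. They were chosen by the position of the start and not by likeness of the match to an X-box.
DCP1B, chr12:2004458-2004707, minus strand: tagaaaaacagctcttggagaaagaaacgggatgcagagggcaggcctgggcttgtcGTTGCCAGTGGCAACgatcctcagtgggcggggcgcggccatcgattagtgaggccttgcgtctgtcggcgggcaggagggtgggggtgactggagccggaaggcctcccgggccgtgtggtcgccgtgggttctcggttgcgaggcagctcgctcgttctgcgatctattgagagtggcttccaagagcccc
LRPAP1, chr4:3532423-3532672, minus strand: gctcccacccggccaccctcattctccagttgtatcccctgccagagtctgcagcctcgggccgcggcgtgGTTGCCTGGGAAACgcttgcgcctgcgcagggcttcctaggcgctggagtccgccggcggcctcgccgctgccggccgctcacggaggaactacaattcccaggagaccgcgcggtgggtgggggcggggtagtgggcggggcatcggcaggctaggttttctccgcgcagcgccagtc
PBX4, chr19:19618688-19618937, minus strand: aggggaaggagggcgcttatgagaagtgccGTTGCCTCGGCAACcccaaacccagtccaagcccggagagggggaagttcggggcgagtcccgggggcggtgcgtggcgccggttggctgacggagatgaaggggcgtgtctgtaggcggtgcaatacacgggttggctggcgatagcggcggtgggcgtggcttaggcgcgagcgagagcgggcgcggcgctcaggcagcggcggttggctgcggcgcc

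In DCP1B, which encodes an mRNA decapping cofactor, the paired X-box began 193 bases before the start, and the interval (chr12:2004090-2004651, score 27) covered 194 of the 250 bases. In LRPAP1, which encodes a chaperone of LDL receptor family proteins, it began 179 bases before the start, and the interval (chr4:3532233-3532511, score 27) covered the 89 bases nearest to the start. In PBX4, a homeobox gene, it began 220 bases before the start, and the interval (chr19:19618402-19618751, score 27) covered the 64 bases nearest to the start. The 2 remaining windows belong to starts inside their genes. POLD2, a subunit of DNA polymerase delta, had an interval of score 27 and THG1L, a tRNA guanylyltransferase, one of score 25. All 5 scores were at or below the median score of the weaker intervals, 27.

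Most windows under a weaker interval held SP/KLF letters. The next sequences again give the 250 bases before the start, with 6 matches to none, at genes named by the rule for 2 of the functional lists described further on. Their matches and their G and C content refer to these 250 bases and not to the 300-base windows. GGGCGG on either strand is in capitals.
MED26, chr19:16628205-16628454, minus strand: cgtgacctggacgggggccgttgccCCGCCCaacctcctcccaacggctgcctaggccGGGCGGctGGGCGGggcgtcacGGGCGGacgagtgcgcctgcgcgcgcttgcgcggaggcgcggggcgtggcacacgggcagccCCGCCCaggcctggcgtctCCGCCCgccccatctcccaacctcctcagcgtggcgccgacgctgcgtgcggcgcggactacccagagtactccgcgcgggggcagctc
SREBF1, chr17:17836987-17837236, minus strand: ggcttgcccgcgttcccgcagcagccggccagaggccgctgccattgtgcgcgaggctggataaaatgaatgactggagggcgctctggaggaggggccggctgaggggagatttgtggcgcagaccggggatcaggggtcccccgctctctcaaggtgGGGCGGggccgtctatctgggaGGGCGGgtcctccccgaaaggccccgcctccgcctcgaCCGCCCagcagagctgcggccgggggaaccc
ME1, chr6:83431052-83431301, minus strand: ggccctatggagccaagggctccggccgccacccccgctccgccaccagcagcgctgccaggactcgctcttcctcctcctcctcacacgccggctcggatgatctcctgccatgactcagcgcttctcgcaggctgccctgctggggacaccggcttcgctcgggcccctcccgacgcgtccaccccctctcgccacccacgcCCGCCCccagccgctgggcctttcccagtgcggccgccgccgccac
MED24, chr17:40054409-40054658, minus strand: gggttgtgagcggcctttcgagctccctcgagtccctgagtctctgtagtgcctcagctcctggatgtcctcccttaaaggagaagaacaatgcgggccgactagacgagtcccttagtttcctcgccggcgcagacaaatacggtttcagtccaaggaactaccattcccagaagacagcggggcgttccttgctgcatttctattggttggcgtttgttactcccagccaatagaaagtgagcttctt

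The sequence of MED26, a Mediator subunit that recruits elongation factors, held 6 SP/KLF matches and 78.0% G and C, and all 6 matches lay inside the interval (chr19:16628268-16628860, score 35). The sequence of SREBF1, a transcription factor that drives lipid synthesis genes, held 3 matches, of which 1 lay inside the interval (chr17:17836138-17837048, score 29). The sequence of ME1, the cytosolic malic enzyme that supplies NADPH, held 1 match, inside the interval (chr6:83431066-83431358, score 39). The sequence of MED24, another Mediator subunit, held none and had 53.6% G and C, although its interval (chr17:40054522-40054721, score 38) had nearly the same score as that of ME1.

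To place the intervals along their genes, the strand of the gene was taken from the promoter table, which was possible for 1440 of the 1763 intervals. The start was the nearer end for 1380 of them (95.8%, 94.7 to 96.7) and the far end of the gene for 60 (4.17%, 3.25 to 5.33). Among the stronger intervals the start was nearer for 552 of 565 (97.7%, 96.1 to 98.7). The weaker intervals were centred slightly downstream of the start, with a median offset of 107 bp into the gene and quartiles of -95.9 and 285 bp. The corresponding median of the stronger intervals was 80 bp, with quartiles of -99.3 and 239 bp. The midpoint was downstream of the start for 65.1% (62.6 to 67.6) of the weaker and 64.9% (60.8 to 68.7) of the stronger intervals. Both groups thus lay around the first bases of the transcribed region.

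The weaker intervals differed more in their spread than in their centre. The bin from 0 to 250 bp downstream held 36.2% (33.7 to 38.8) of the weaker and 40.8% (36.7 to 44.9) of the stronger intervals, whereas the bin from 500 to 1000 bp downstream held 14.3% (12.6 to 16.3) and 9.42% (7.26 to 12.1). An annotated start lay under 37.9% (35.4 to 40.5) of the weaker intervals and under 48.8% (44.7 to 53.0) of the stronger ones. Since the stronger intervals were also wider, they had more bases with which to reach a start, and the part of width in this difference was not tested. A midpoint within 250 bp of any annotated start of the gene, which does not use width, was found for 61.4% (58.8 to 63.9) and 65.8% (61.8 to 69.6).

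**Figure D1:**
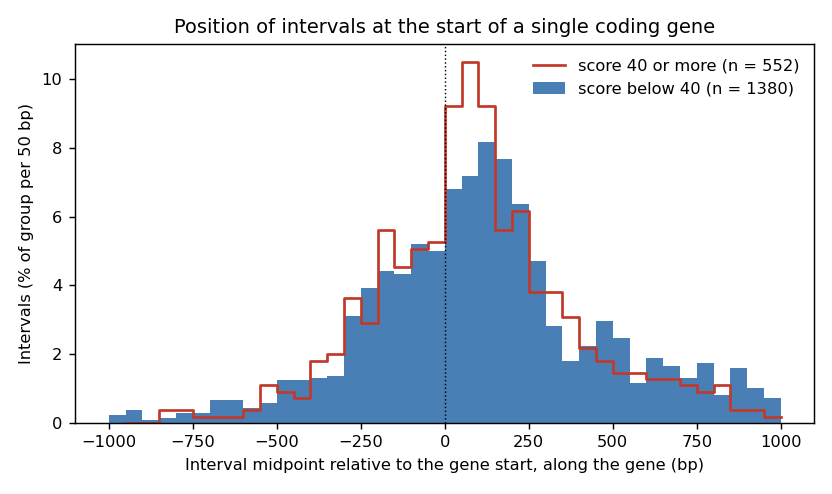
The x axis gives the interval midpoint relative to the gene start in bp, positive into the gene, and the y axis the percentage of the group in each bin of 50 bp, with bars for the 1380 weaker intervals and the line for the 552 stronger intervals at a start. Both groups peak just downstream of the start, and the bars stand above the line beyond 500 bp downstream on most bins.

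Regardless of strand, the midpoint lay inside the gene for 1136 of the 1763 weaker intervals (64.4%, 62.2 to 66.6) and for 63.6% (60.02 to 67.01) of the stronger ones. The median distance to the gene end was 223 bp, with quartiles of 109 and 439 bp, against 187 bp for the stronger intervals. The genes themselves had a median length of 33053 bp against 24477 bp for all 19126 coding genes.

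The scores of the weaker intervals ran from 13 to 39, with a median of 27 and quartiles of 22 and 33. They took 27 different whole-number values but piled up on a few of them. Score 27 was given to 211 intervals, score 17 to 141, score 25 to 129, score 32 to 124 and score 22 to 119, and these 5 values together held 41.1% of the intervals. Just inside the limit, 35 intervals had a score of 38 and 100 a score of 39. Just outside it, 28 single-gene intervals had a score of 40 and 15 a score of 41. The 5 intervals with the lowest score that come first along the chromosomes, all at 13, lay at TP73, a p53 family gene, THAP3, SRSF4, a splicing factor gene, ZYG11A and TTC4, a co-chaperone gene.

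Widths rose with the score, from which they are not independent since both come from the same peak call. The weaker intervals were between 200 and 1399 bp wide, the median being 265 bp and the quartiles 220 and 363 bp, and the stronger ones had a median of 354 bp. From the lowest scores (13 to 19) to 20 to 29 and 30 to 39, the median width went from 246 to 259 and 283 bp, and it was 303 bp at 40 to 49 and 400 bp at 50 or more. The share of all listed intervals that lay at a single coding gene end also climbed, from 41.2% (37.8 to 44.8) at 13 to 19, through 46.4% (44.0 to 48.9) and 50.6% (47.9 to 53.2), to 54.3% (50.1 to 58.4) and 62.5% (58.7 to 66.0). The share at the start, by contrast, was 96.0%, 95.03%, 96.6%, 98.4% and 97.2% in the same order. The share at a single coding gene end was thus lowest in the band of lowest scores, whereas the share at the start stayed between 95.03% and 98.4%. No test was run on either trend.

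**Figure D2:**
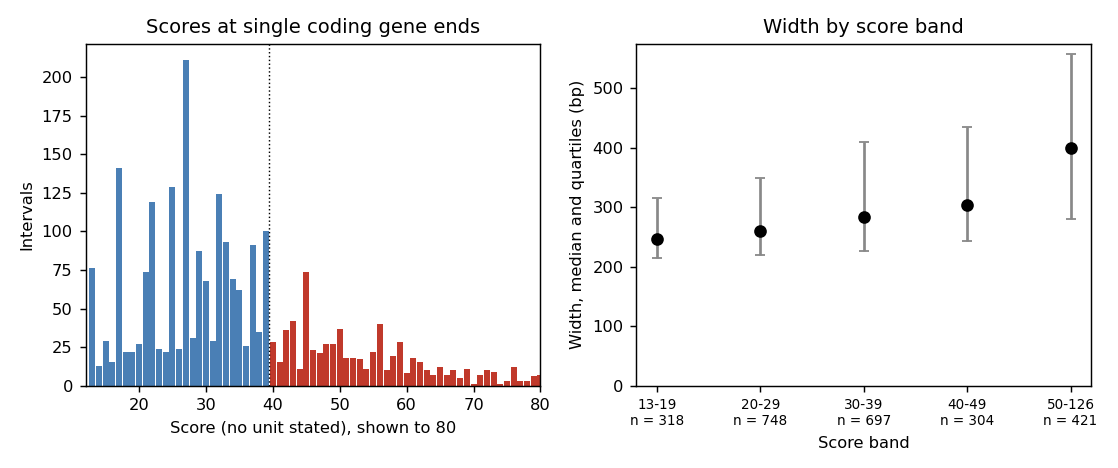
Left, number of intervals at a single coding gene end (y axis) for each score up to 80 (x axis, no unit stated), with weaker intervals in blue, stronger in red and the limit dotted. Right, median width in bp (points) with quartiles (bars) in 5 score bands, where the medians rise from 246 to 400 bp.

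The 5 widest intervals lay at COMTD1 (1399 bp, score 29), PBLD (1069 bp, score 30), RRM2B (1008 bp, score 34), SHROOM1 (951 bp, score 29) and SREBF1 (911 bp, score 29). RRM2B encodes the p53-induced subunit of ribonucleotide reductase. None of the 5 was near the score limit, so the widest of these intervals were not those with the highest score.

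A total of 317 intervals (18.0%) were listed on more than 1 line with identical coordinates, up to 6 lines, and 144 of them carried more than 1 score. The interval of RRM2B, for example, stood on 4 lines with scores between 13 and 34, and that of SREBF1 on 3 lines between 18 and 29. The highest score was used for the rule, and a lower score on another line would not have moved any of these intervals out.

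To examine the glycolytic genes on which the study centred, all weaker intervals at a list of 62 glycolysis and gluconeogenesis genes were listed. Only 3 of the 62 genes had one (4.84%, 1.66 to 13.3). Over all 19126 coding genes the share was 8.35%, so this list lay below the background and within its counting error. PGAM1, the phosphoglycerate mutase that converts 3-phosphoglycerate to 2-phosphoglycerate, had 1 weaker interval (chr10:97426020-97426220) of 201 bp. It stood on 2 lines, both with score 26, which is just below the median of the weaker intervals. Its midpoint was 71 bp upstream of the gene start in the gene table. The nearest start of PGAM1 in the promoter table, by contrast, was 1698 bp away. The midpoint was also within 1 kb of an end of LOC644215, a gene that is not annotated as protein-coding.

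GAPDH, the dehydrogenase that precedes phosphoglycerate kinase in the pathway, had 2 weaker intervals, both with score 33. The wider one (chr12:6533608-6534287, 680 bp) was centred 570 bp upstream of the start in the gene table and the other (chr12:6534363-6534729, 367 bp) 29 bp downstream. The nearest start in the promoter table was 1317 bp from the wider one and 718 bp from the other. On second lines the 2 intervals carried scores of 24 and 22. Both lay within 1 kb of an end of GAPDH-DT, a divergent transcript. FBP2, the muscle fructose-bisphosphatase of gluconeogenesis, had an interval (chr9:94559198-94559397) of score 39, but at the far end of the gene, 578 bp inside it. No weaker interval lay at an end of ADH5, which the paper lists among its genes with a ChIP-seq peak. This absence covers only weaker intervals at a single coding gene end. Of the 62 genes, 1 had a stronger interval and 2 had an interval shared by more than 1 coding gene. Counting all 3 classes, 6 of the 62 genes had an interval (9.68%). Of the 15101 coding genes in the promoter table, which leaves out 4025 coding genes, 12603 had no interval at an end.

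To describe which kinds of genes carried weaker intervals, 28 gene lists were counted. For comparison, stronger intervals lay at 3.65% of coding genes. The lower bound of the counting interval was above 8.35% for 5 lists, the upper bound was below it for 4, and 8.35% lay between the bounds for 19. No test was run on these shares, and genes that are inactive in the cells count in the background too.

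The highest share was that of cholesterol and fatty acid synthesis, at 10 of 39 genes (25.6%, 14.6 to 41.1). The 4 highest scores in it were those of ME1 (39), SREBF1 (29), DHCR7 (27), the last enzyme of cholesterol synthesis, and FASN (25), fatty acid synthase. Others, named here after their values were seen, were SCD (19), a fatty acid desaturase, HMGCS1 (18), an early enzyme of cholesterol synthesis, ELOVL1 (17), a fatty acid elongase, and SREBF2 (15). Both SREBF genes, whose products switch on this pathway, thus had a weaker interval. The scores of the list were low, with a median of 20.5, and its count dropped from 10 to 5 when only scores of at least 20 were used and to 6 with a window of 500 bp.

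In the MAP kinase cascade, which relays growth factor and stress signals, 16 of 63 genes had a weaker interval (25.4%, 16.3 to 37.3). The highest scores were those of DUSP22 (38), DUSP5 (38), MAP2K5 (37) and MAP3K20 (35). The 16 genes, counted by role after their values were seen, held 6 dual-specificity phosphatases, which switch MAP kinases off (DUSP1, DUSP2, DUSP4, DUSP5, DUSP14, DUSP16), and DUSP22 of the same family. They also held 5 MAP3 kinases (MAP3K3, MAP3K5, MAP3K9, MAP3K13, MAP3K20), 2 MAP2 kinases (MAP2K3, MAP2K5), the kinase MAPK9 and the upstream GTPase HRAS. MAPK9 (23) was the only MAP kinase and HRAS the only GTPase among the 16, and how the tiers were covered was not tested. The interval of MAP2K5 (chr15:67542489-67542923) was centred 3 bp from the gene start, whereas those of DUSP16 and MAP2K3 lay 923 bp downstream and 928 bp upstream of it.

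Among the RAB GTPases, which direct vesicle traffic, 13 of 57 genes had a weaker interval (22.8%, 13.8 to 35.2), led by RAB28 (34), RAB40B (30), RAB43 (30) and RAB31 (29). In the Mediator complex, which links transcription factors to RNA polymerase II, 7 of 31 genes had one (22.6%, 11.4 to 39.8), led by MED24 (38), CCNC (37), MED26 (35) and MED10 (34). CCNC is the cyclin of its kinase module. Among the aminoacyl-tRNA synthetases, which charge tRNAs, 8 of 39 genes had one (20.5%, 10.8 to 35.5), led by NARS1 (39), IARS1 (37), TARS1 (32) and PARS2 (27). Stronger intervals, found at 3.65% of all coding genes, lay at 4 of 39 cholesterol and fatty acid synthesis genes and 5 of 63 MAP kinase cascade genes. They also lay at 5 of 57 RAB genes, 4 of 39 synthetase genes and 1 of 31 Mediator genes. Intervals at these lists were therefore not confined to the weaker ones. With an upper score limit of 30 the Mediator count dropped to 2 of 31, that of the synthetases to 5 of 39 and that of the MAP kinase cascade to 10 of 63, while the share over all genes fell to 5.24%. At the same limit the RAB count was 10 of 57 and that of cholesterol and fatty acid synthesis stayed at 10 of 39.

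Other lists of basic cell functions lay above 8.35%, each with 8.35% inside its counting interval. Proteasome genes had 7 of 47 (14.9%), led by PSMG2 (38), an assembly chaperone, PSMD5 (33), PSMB7 (30) and PSMD12 (27). DNA repair genes had 10 of 74 (13.5%), led by NBN (39), PARP1 (35), NEIL2 (34) and ERCC5 (33). Translation factors had 9 of 68 (13.2%), led by EIF2AK4 (39), EIF3M (39), EIF4H (37) and ETF1 (35). Spliceosome genes had 11 of 87 (12.6%), led by SNRPA1 (37), DHX8 (27), SRSF6 (27) and SRSF3 (26). Cell cycle genes had 7 of 57 (12.3%), led by CDK4 (37), AURKB (27), CCNB1 (27) and CCNB2 (25). Autophagy and mTOR genes also had 7 of 57, led by RB1CC1 (39), ULK2 (37), MLST8 (36) and RRAGC (35). Cytosolic ribosomal protein genes had 10 of 83 (12.05%), led by RPS3 (34), RPL37 (33), RPL22L1 (29) and RPL13 (27).

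The liver cancer drivers had 4 of 36 (11.1%), namely NFE2L2 (35), AXIN1 (33), CTNNB1 (32) and AHCTF1 (27). CTNNB1 encodes beta-catenin and AXIN1 a scaffold of the complex that degrades it. The tricarboxylic acid cycle list had 3 of 29 (10.3%), namely CS (38), citrate synthase, IDH1 (17) and MPC1 (17), a subunit of the mitochondrial pyruvate carrier. RNA polymerases and general transcription factors had 7 of 76 (9.21%), led by BRF1 (34), GTF2F1 (34), TBP (33) and POLR2C (29).

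Shares below 8.35% were found for genes of specialised cell types and for large tandem families. None of 389 olfactory receptor genes had a weaker interval (upper bound 0.978%). Keratins and keratin-associated proteins had 2 of 144 (1.39%, 0.382 to 4.92), KRT7 (38) and KRT80 (25). Histone genes had 1 of 73 (1.37%, 0.242 to 7.36), H1-10 (39). ZNF zinc finger genes had 25 of 496 (5.04%, 3.44 to 7.33), led by ZNF280D (39), ZNF592 (39), ZNF184 (37) and ZNF354B (37). These 4 are the lists whose upper bound was below 8.35%.

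Another 4 lists lay below 8.35% but within counting error of it, besides the glycolysis list above and the ciliary, islet and hepatocyte lists below. Ubiquitin conjugating and deubiquitinating enzymes had 7 of 91 (7.69%), led by UBE2L6 (39), UBE2N (32), USP36 (32) and UBE2Q2 (29). Solute carriers had 28 of 366 (7.65%), led by SLC71A1 (39), SLC27A4 (38), SLC6A18 (38) and SLC25A51 (37). Mitochondrial ribosomal protein genes had 5 of 78 (6.41%), led by MRPL20 (39), MRPL4 (39), MRPL58 (34) and MRPL36 (28). Respiratory chain and ATP synthase genes had 5 of 81 (6.17%), led by ATP5F1D (34), NDUFA10 (27), NDUFB10 (25) and COX6C (23). Intervals shared by more than 1 coding gene, which the rule leaves out, lay at 5 of 91, 14 of 366, 7 of 78 and 8 of 81 genes of these 4 lists, in the same order. The share of all coding genes with a shared interval was not counted, so these counts have no background here.

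In weaker intervals, the lists closest to the known roles of RFX factors stood near or below the background. Ciliary genes had 4 of 61 (6.56%, 2.58 to 15.7), namely MKS1 (39), IFT81 (37), DYNC2H1 (35) and BBS5 (17). Islet genes, the setting in which RFX6 is best known, had 1 of 29 (3.45%, 0.611 to 17.2). In the RFX family 1 of 10 genes had one, RFX3 (22), a regulator of ciliary genes. Hepatocyte genes, the markers of the parent tissue, had 1 of 40 (2.50%, 0.443 to 12.9), APOA1 (32), the main protein of high-density lipoprotein. These shares leave out stronger and shared intervals. With those included, 11 of 61 ciliary genes had an interval (18.0%), 1 of 29 islet genes, 1 of 10 RFX genes and 2 of 40 hepatocyte genes. For comparison, 12603 of the 15101 coding genes in the promoter table had no interval at an end. That set leaves out 4025 coding genes, on which the list counts could also draw.

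**Figure D3:**
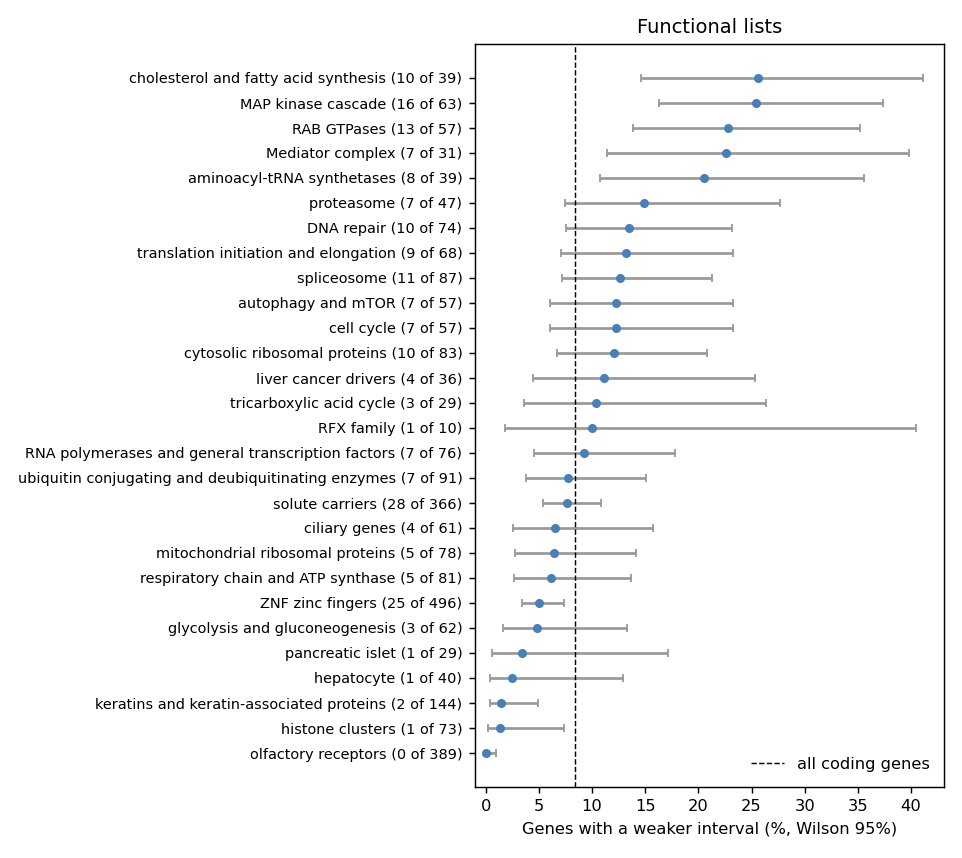
Percentage of the genes of each of 28 lists with a weaker interval at an end (x axis), with Wilson 95% intervals as bars, the counts after each name and the share over all coding genes, 8.35%, as the dashed line. The bars of 5 lists at the top lie wholly above the line, and those of olfactory receptors, histone clusters, keratins and ZNF zinc fingers wholly below it.

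To ask what the promoters of these genes share in sequence, letters were counted in the 300-base windows, on both strands unless the motif is its own reverse complement. All 1836 windows of the 1312 member genes in the table were compared with the 980 windows that a weaker interval overlapped and with all 21156 windows of 15101 coding genes. The median G and C content was 68.3% in member genes, 70.2% under the interval and 62.7% in all windows. Under stronger intervals it was 70.0%. The ratio of observed to expected CpG had a median of 0.85 in member genes, 0.89 under the interval and 0.74 in all windows. The promoters under weaker intervals thus had a high G and C and CpG content, as CpG islands do, with medians close to those under stronger intervals.

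The SP/KLF letters GGGCGG were found in 82.9% (80.4 to 85.1) of the windows under a weaker interval, in 73.7% (71.6 to 75.7) of all windows of member genes and in 56.6% (55.9 to 57.2) of all windows. Base composition moved with this. Among windows with 65 to 75% G and C, a choice made after the data were seen, the share was 86.1% (82.7 to 88.9) under the interval and 84.5% (83.6 to 85.3) in all windows. The TATA letters TATAAA behaved in the opposite way, at 2.96% (2.07 to 4.22) under the interval against 9.51% (9.12 to 9.91) in all windows, and at 2.90% and 2.49% within the same GC range. The AP-1 letters TGANTCA were likewise at 3.06% (2.15 to 4.34) against 6.08% (5.77 to 6.41), and at 2.07% and 2.77% within the GC range.

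A smaller difference was kept within the GC range by the YY1 letters AAGATGGCG. They were found in 4.80% (3.63 to 6.32) of the windows under a weaker interval and in 2.42% (2.22 to 2.64) of all windows. Within the GC range the shares were 5.39% (3.71 to 7.79) and 2.92% (2.54 to 3.36). The YY1 share was not particular to weaker intervals. It was 4.06% (2.61 to 6.25) under stronger intervals and 5.37% (3.81 to 7.53) under intervals shared by more than 1 coding gene. The ETS letters CCGGAAG were at 19.1% (16.7 to 21.7) against 12.9% (12.5 to 13.4), and at 19.3% (16.0 to 23.1) against 16.8% (15.9 to 17.7) within the GC range. Under intervals shared by more than 1 coding gene the ETS share was 30.5% (26.9 to 34.4), above that under the weaker single-gene intervals, and under stronger single-gene intervals it was 19.9% (16.5 to 23.7). The NFY letters CCAAT were at 34.4% both under the interval and in all windows, and at 34.4% (30.3 to 38.8) against 30.2% (29.04 to 31.3) within the GC range.

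The letters of the X-box were counted in the same way. A single arm, GTTNCC, was found in 44.7% (41.6 to 47.8) of the windows under a weaker interval, in 42.7% (38.3 to 47.3) under a stronger interval and in 45.9% (45.3 to 46.6) of all windows. The paired X-box was found in 5 of 980 windows under a weaker interval (0.510%, 0.218 to 1.19), in 6 of 468 under a stronger one (1.28%, 0.589 to 2.77) and in 178 of all 21156 windows (0.841%, 0.727 to 0.974). Each paired X-box also counts as a single arm. These counts describe letters in the windows and not binding.

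The E-box CACGTG was at 10.5% (8.74 to 12.6) under a weaker interval against 8.25% (7.89 to 8.63) in all windows, and at 10.6% against 10.8% within the GC range. The other motifs were rarer. Under a weaker interval and in all windows, the CRE letters TGACGTCA were at 3.16% against 2.31%, and the NRF1 letters GCGCATGCG at 3.06% against 2.38%. The FOX letters TGTTTAC were at 2.24% against 2.86%, the BANP letters TCTCGCGAG at 1.43% against 0.926%, and the ZNF143 letters ACTACAATT at 0.714% against 0.383%. The C/EBP letters TTGCGCAA were in none of the 980 windows and in 44 of all 21156.

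**Figure D4:**
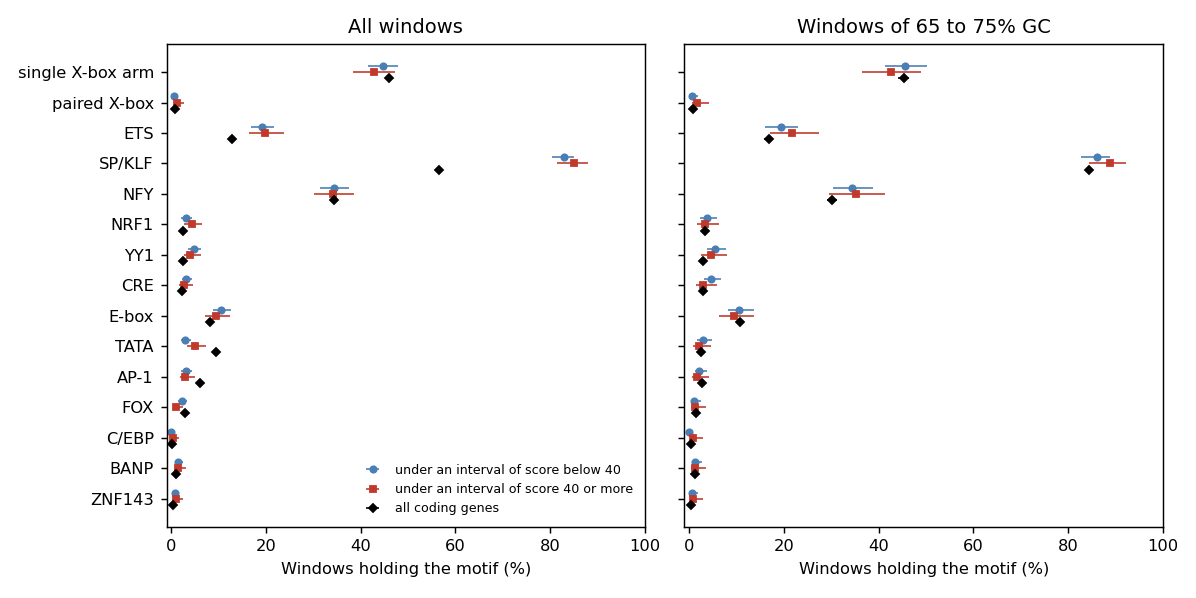
Percentage of 300-base promoter windows that hold each motif (x axis) in all windows (left) and in windows of 65 to 75% G and C (right), with Wilson 95% intervals as bars, for windows under weaker (circles) and stronger (squares) intervals and for all coding genes (diamonds). SP/KLF under weaker intervals stands at 82.9% against 56.6% on the left and at 86.1% against 84.5% on the right.

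At the far end of the gene, 60 oriented weaker intervals were found, 34 of them with the midpoint inside the gene. Their genes were short, with a median length of 11108 bp against 34790 bp for genes with an interval at the start. Only 3 of the 60, at MRPL36, LOC128125816 and ICAM3, had any annotated start of the same gene within 1 kb. At LOC128125816, which is only 135 bp long, this was the start of the gene itself. Scores at the far end covered the whole range, from 13 at DPM2, EXOC3L4 and PYDC1 to 39 at ATP13A2, CCDC106 and FBP2. These genes are named as the ends of that range, after their values were seen.

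An end of a non-coding gene also lay in the window of 393 weaker intervals (22.3%, 20.4 to 24.3), against 24.6% (21.6 to 27.8) of the stronger ones. It was a long non-coding RNA for 355 of them, of which 75 were at a divergent transcript (-DT) and 73 at an antisense gene (-AS). At 16 intervals it was a miRNA gene, at 4 a snoRNA gene and at 2 a tRNA gene. With unstranded intervals of about 265 bp, the coding and the non-coding start cannot be told apart there. Intervals at ribosomal protein genes that host snoRNAs were examples, namely RPS3 with SNORD15A (score 34), RPL13 with SNORD68 (27) and RPS12 with SNORD101 (17), all named after their values were seen.

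Most genes had a single weaker interval, namely 1443 of 1597, while 142 had 2 and 12 had 3. The 12 were ANKRD33B, ANKRD9, FGFR4, GAB1, HIP1, HRAS, IRF2BP2, KLF10, MAP3K3, PSMG2, SNAI1 and ZNF263. The values of 6 of them follow, chosen after they were seen. FGFR4, the FGF19 receptor of the liver, had intervals of score 33 and 30 at 485 bp upstream and 219 bp downstream of the start and another of score 27 at 302 bp beyond its far end. GAB1, a docking protein of receptor tyrosine kinases, had scores of 22, 35 and 32. HRAS had scores of 25 at 187 bp upstream of the start, 18 at 663 bp downstream and 29 near the far end, within a gene of only 3335 bp. MAP3K3 had scores of 30, 34 and 17 at 505 bp upstream, 90 bp downstream and 532 bp downstream of the start. PSMG2 had scores of 22, 36 and 38 at 932, 580 and 271 bp upstream of the start, so all 3 lay on the same side. SNAI1, a repressor of E-cadherin in epithelial-mesenchymal transition, had scores of 23, 22 and 32.

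A weaker interval lay at both ends of 7 oriented genes, ATP13A2, COMTD1, DNAJB12, FGFR4, HRAS, LOC124904106 and NT5M. COMTD1 and HRAS are short, at 2317 and 3335 bp, while NT5M spans 44291 bp. At ATP13A2, a lysosomal polyamine transporter, the 2 scores were alike, 35 at the start and 39 at the far end. A stronger interval was also present at an end of 128 of the 1597 genes. Over all 19126 coding genes, 698 had a stronger interval (3.65%). Of the weaker intervals, 469 (26.6%, 24.6 to 28.7) had another listed interval of any kind within 1 kb, about the same as the stronger ones (25.9%, 22.9 to 29.2), and for 155 (8.79%) that neighbour had a score of 40 or more.

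Across chromosomes, the share of coding genes with a weaker interval ranged from 3.25% (1.83 to 5.73; 11 of 338 genes) on chromosome 13 to 12.1% (9.98 to 14.6; 94 of 778) on chromosome 9. Chromosomes 12 and 15 followed at 11.4% and 11.3%, and chromosome 4 was next to lowest at 3.77% (2.63 to 5.36). Chromosome 19, where many ZNF genes lie, stood at 5.72% (4.64 to 7.04). Among intervals at a single coding gene end, weaker ones made up from 59.9% (52.6 to 66.7) on chromosome 3 to 85.7% (60.1 to 96.0; 12 of 14) on chromosome 13.

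**Figure D5:**
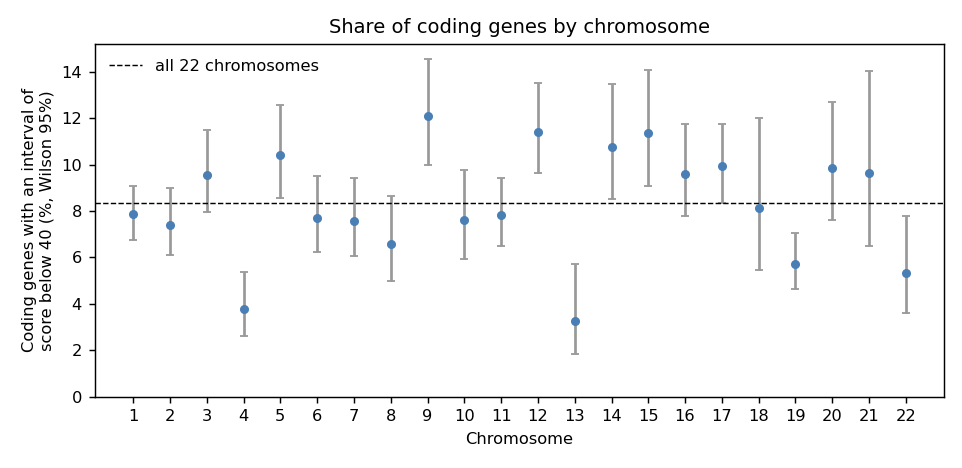
Percentage of coding genes with a weaker interval at an end (y axis, from 0) on chromosomes 1 to 22 (x axis), with Wilson 95% intervals as bars and the share over all 22 chromosomes, 8.35%, dashed. Chromosomes 4 and 13 lie lowest at 3.77% and 3.25%, and chromosome 9 highest at 12.1%.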

How the data were processed

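The authors called peaks on the HA-RFX6 ChIP library with MACS and applied a cut-off on the q value. The submitters' processing notes name MACS2 2.1.0.2 and GRCh37. The aligner is not given in the sources used here. The deposited file holds a chromosome, a start, an end, a name and a whole-number score per line, and the authors do not state what the score measures. Here it served to order and select intervals. Of 6214 lines, 1 had digit separators, which were removed, and lines with identical coordinates were collapsed to the highest score, leaving 4994 intervals on chromosomes 1 to 22. Coordinates are 1-based.

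Genes came from the RefSeq GRCh38.p14 gene table. Strand and the 300-base windows came from the RefSeq promoter table, which had no entry for 4025 of 19126 coding genes, so base composition and motifs exclude them. The members, gene lists and motifs were chosen with earlier results of these data known. Genes named were PGAM1, GAPDH and ADH5, up to 4 per list by score, the 5 widest, the 5 lowest in score, genes with 3 or more members or a member at both ends, and genes with a paired X-box under the interval. Some genes that this rule names are not reported here. Groups came from sample titles. There were no tests, since 1 library has no replicate, and shares carry Wilson 95% intervals for counting only. Alternatives were other score limits, windows, overlap rules, line scores, merging, strands and promoter sets. The scripts were tested on simulated data and run with numpy 2.4.6, scipy 1.17.1, pandas 2.3.3 and matplotlib 3.10.9 under Python 3.11.15. A file of the input was not used here.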

Additional observations from a re-analysis of the deposited data

Results flagged for a closer look

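Chromosome X, which the rule leaves out, also held weaker intervals. Of its 25 intervals, 13 had a score below 40 and lay at the end of a single coding gene. They lay at 13 of 848 coding genes (1.53%), against 8.35% on chromosomes 1 to 22. They included CTPS2 (33), DDX3X (27), CASK (33), ARAF (27), WAS (30), PPP1R3F (27), SLC25A5 (27), SOWAHD (33), PHF6 (36), HPRT1 (33), HCFC1 (17) and PLXNA3 (27), with the score after each. No test was run on this difference, and what flagged the result is that the rule does not use this chromosome.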

How the results depend on the processing

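No paired analysis was possible because the list comes from 1 ChIP library. With a score limit of 30 the weaker intervals numbered 1066 in place of 1763, at 5.24% of coding genes, with a median width of 256 bp, 136 in place of 212 list genes and 7.58% of genes on chromosome 9. The counts and shares follow from the smaller number of intervals, and the wider intervals of scores 30 to 39 are left out. With scores of at least 20 only, 6.96% of coding genes had one. A window of 500 bp gave 7.48% of coding genes, 98.0% at the start, 16.8% at a non-coding end and 9.90% of genes on chromosome 9. A window of 2 kb gave 8.78%, 94.5% at the start and 26.3% at a non-coding end. The lowest score of repeated lines gave 8.85% and 273 bp, and merging of intervals closer than 1 kb gave 7.49% and 285 bp. The median G and C content was 70.2% where only windows under the interval were used. Taking any overlap with the window moved none of these 9 results out of the counting error or by over 1.5 times, and the number of weaker intervals moved by over 1.5 times with the score limit of 30 only. Chromosome 9 was highest with 3 of the 7 alternatives and chromosome 13 lowest with 5 of them. Of 65 values for single lists, chromosomes and motifs, 37 moved with the score limit of 30 and between 0 and 10 with the other 6 settings. Of the 15 motif shares, 6 moved on the gene strand alone, 6 in windows under the interval and 6 in windows of 65 to 75% G and C, the last being chosen after the data were seen.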

Other observations

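Of the 16 weaker intervals at miRNA gene ends, 5 are given here, chosen after their values were seen. The interval at CDK9 (score 34), the kinase that releases paused RNA polymerase II, was within 1 kb of MIR2861 and MIR3960. That at JUND (37), an AP-1 subunit, was near MIR3188, and that at NOTCH1 (19) near MIR4674. Intervals at HSP90B1 (30) and CCT2 (17), which encode chaperones, were near MIR3652 and near MIR3913-1 and MIR3913-2. The 2 intervals at tRNA gene ends lay at SACM1L (30) and SLC27A4 (38), a fatty acid transport protein gene. No value here separates the coding gene from its small RNA neighbour.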
